A study of Mus musculus with 8 samples.

Results

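The contractile genes of peritubular myoid cells were followed in whole testes of mice lacking Ing2. The set held 10 genes, Acta2, Actg2, Myh11, Cnn1, Tagln, Des, Lmod1, Mylk, Myl9 and Smtn, and its members were the array probe sets annotated to exactly 1 symbol that was one of these names. Each of the 10 genes had 1 such probe set, so that 10 of the 35557 probe sets on the array, and 10 of the 19938 genes with a probe set of their own, were members. Total RNA from 5 Ing2-/- testes and from 3 Ing2+/+ littermate testes had been hybridised, 1 array per mouse, at 2-3 months of age. The Ing2-/- mice carried a germline deletion of Ing2 exon 2 made by crossing mice with a floxed allele to EIIa-Cre mice, and heterozygotes were bred to C57BL/6J to remove the Cre transgene before intercrossing. The deletion was therefore present in every cell of the testis, in myoid cells as well as in germ cells. Values are log2 levels from RMA, a method that corrects, normalises and summarises the probes of an array, and a fold change is the Ing2-/- mean minus the Ing2+/+ mean on that log2 scale.

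Peritubular myoid cells are flat, smooth-muscle-like cells that wrap each seminiferous tubule. Their contraction moves fluid and released sperm along the tubule, and together with Sertoli cells they lay down its basement membrane. Contraction follows the usual smooth muscle scheme, in which calcium and calmodulin switch on myosin light chain kinase, the kinase phosphorylates the regulatory light chain, and smooth muscle myosin then pulls on filaments of smooth muscle actin. The same genes are also expressed in vascular smooth muscle, so none of them marks myoid cells alone. In mice, smooth muscle gamma-actin, the product of Actg2, is also made by postmeiotic germ cells.

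Many smooth muscle contractile genes share a regulatory element, the CArG box, that is bound by serum response factor (SRF). A promoter was in the RefSeq table used here for 7 of the 10 genes, and the 250 bases before the start were searched on both strands for CC, a core of 6 A or T bases and GG, with 1 C or G allowed in the core. No promoter was searched for Actg2, Myh11 and Tagln. Boxes were found in Acta2 and Myl9, and these are shown as the elements found among the members. No match in the other 5 promoters says only that these letters were not in this window. Capitals mark the box, and 10 bases are given on each side, 5′ to 3′ on the gene's strand in the GRCm38.p6 build. The printed Acta2 stretches, flanks included, lie at chr19:34255438-34255467 and chr19:34255388-34255417 on the minus strand. Their boxes begin 84 and 34 bases before the start, and each has 1 substitution in the core. The printed Myl9 stretches, flanks included, lie at chr2:156775293-156775322 and chr2:156775355-156775384 on the plus strand. Their boxes begin 161 and 99 bases before the start, with 0 and 1 substitutions.
Acta2 box 1: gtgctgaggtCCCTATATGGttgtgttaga
Acta2 box 2: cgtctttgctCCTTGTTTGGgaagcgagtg
Myl9 box 1: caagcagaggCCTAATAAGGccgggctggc
Myl9 box 2: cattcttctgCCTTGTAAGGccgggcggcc
A box without substitution was present in 1 of the 7 member promoters and in 1.47% of all 32851 promoters in the table. With 1 substitution allowed, 2 of the 7 held a box, against 8.59% of all promoters. A match of letters is not a measured binding site.

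Ing2 itself was read first as a check of the labels. Its probe set gave 5.06, 5.64, 5.21, 5.29 and 5.25 in the Ing2-/- testes, against 7.43, 7.60 and 7.34 in the Ing2+/+ testes. The difference was -2.16 (SE 0.127, limma adjusted p = 0.000395), and the groups did not overlap (exact two-sided permutation p = 0.0179, the smallest that 5 against 3 arrays allow). On 4 of the 5 Ing2-/- arrays Ing2 was not above the median of probe sets with no gene name, so that the size of the difference is a lower limit. Array medians ran from 6.46 to 6.53 for the Ing2-/- group and from 6.41 to 6.45 for the Ing2+/+ group. Ing2-/- replicate 3 stood apart, with a mean correlation of 0.9832 to the other Ing2-/- arrays, where the remaining Ing2-/- arrays had 0.9899 to 0.9921 and the Ing2+/+ arrays 0.9949 to 0.9952. Results for the members are therefore given with and without this array. Probe sets with no gene name served as a measure of background, their array medians being between 5.47 and 5.62. All 10 members lay above that background on all 8 arrays. This background is a median, so a level above it does not show that a gene was detected. The skeletal muscle markers Ckm and Mb were above it on all 8 arrays too, with Ing2+/+ means of 6.51 and 6.66. Of 15 such markers, 6 were below it on every array. Des, Lmod1 and Cnn1 had Ing2+/+ means of 6.03, 6.02 and 6.66.

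On the deposited scale, 5 of the 10 contractile genes had every Ing2-/- testis above every Ing2+/+ testis, 1 had every Ing2-/- testis below, and the remaining 4 overlapped. Scaling mattered for this count: after cyclic loess normalisation, 3 genes (Acta2, Myh11 and Myl9) lay above, where 12.1% of all probe sets did. With the arrays set to an equal Sertoli marker median 0 members lay above, and 0.101% of all probe sets did. All directions that follow are on the deposited scale. The 5 genes above were Acta2, Myl9, Myh11, Smtn and Tagln, with changes of 0.26 to 0.49, or 1.19-fold to 1.40-fold. Actg2, the second smooth muscle actin, was the gene below, with 0.718 of the Ing2+/+ level. Cnn1, Mylk, Des and Lmod1 had differences of -0.06 to 0.19. None of the 10 passed the limma test at an adjusted p under 0.05 over all probe sets: 0 members were called higher, against a background of 1.79% of all probe sets, and 0 were called lower, against 3.03%. At an unadjusted p under 0.05, 5 members were higher, with a background of 16.0%, and 1 was lower, with a background of 11.8%. Ing2-/- arrays all above Ing2+/+ arrays were found for 14.4% of all probe sets, and all below for 12.2%. No member passed the unadjusted p under 0.001 that the study's methods used. The median change of the 10 members was 0.22, and that of all probe sets was 0.03. In whole testis RNA, more or fewer cells of a type and more or less RNA per cell cannot be told apart.

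**Figure D1:**
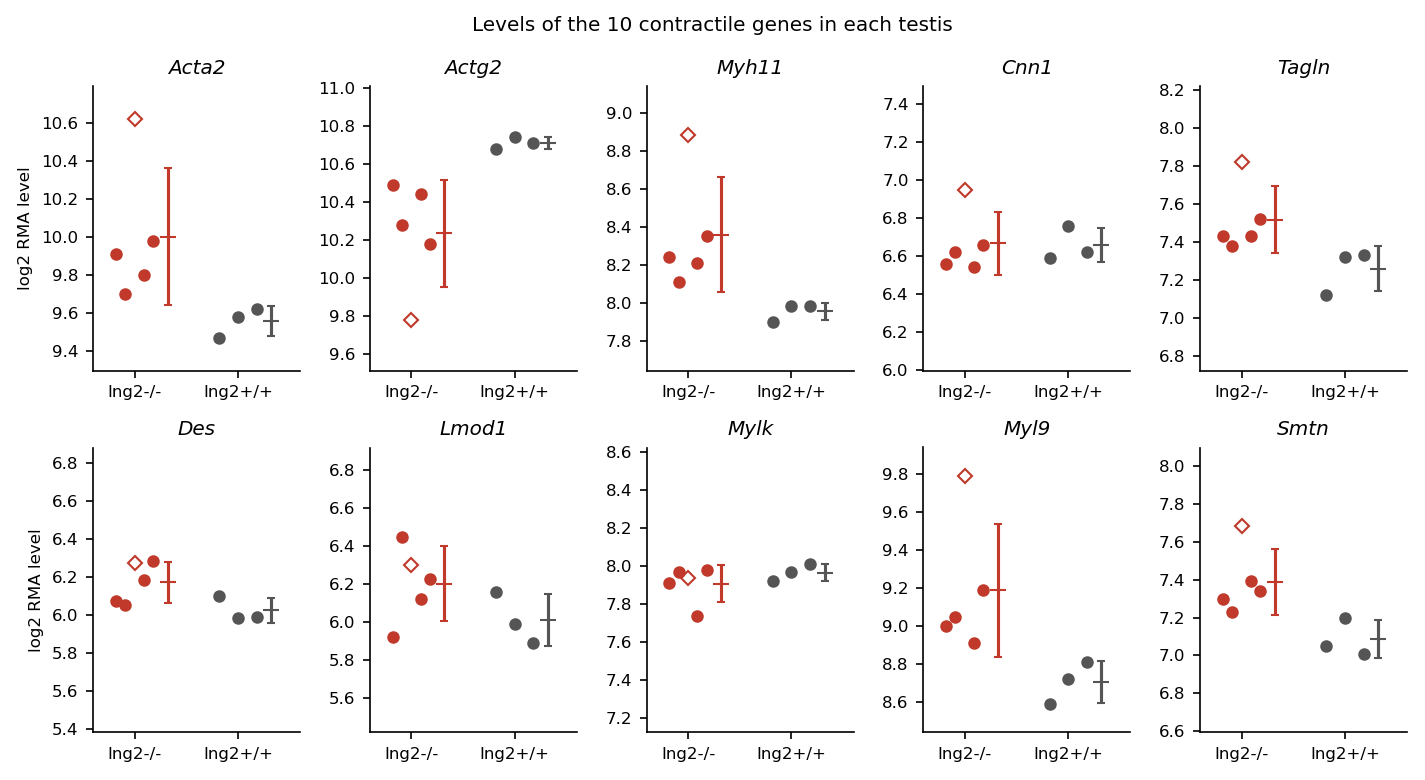
Log2 RMA level (vertical axis, spanning the same range of log2 units in each panel around its own values) of the 10 contractile genes in 5 Ing2-/- testes (red, left) and 3 Ing2+/+ testes (grey, right), with the open diamond for Ing2-/- replicate 3 and bars for the mean and SD. Acta2, Myh11, Tagln, Myl9 and Smtn have every Ing2-/- testis above every Ing2+/+ testis (on this scale, and not with an equal Sertoli marker median), Actg2 has every one below, and the other 4 genes overlap.

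The pair of smooth muscle actins lay on opposite sides of the Ing2+/+ testes, except with an equal Sertoli marker median, where both differences were below 0. Acta2, which encodes the alpha-actin that is the most widely used marker of myoid cells, had levels of 9.91, 9.70, 10.62, 9.80 and 9.98 in Ing2-/- testes, against 9.47, 9.58 and 9.62 in Ing2+/+ testes. Every Ing2-/- testis was above every Ing2+/+ testis, and replicate 3 was the highest. The difference was 0.45 (SE 0.188), with a limma adjusted p = 0.162. Actg2, which encodes the gamma-actin of visceral smooth muscle, had 10.49, 10.28, 9.78, 10.44 and 10.18 in Ing2-/- testes and 10.68, 10.74 and 10.71 in Ing2+/+ testes. Here every Ing2-/- testis was below every Ing2+/+ testis, and replicate 3 was the lowest. The difference was -0.48 (SE 0.148, limma adjusted p = 0.0879), which was the smallest adjusted p of the 10 members. With each gene set against its own Ing2+/+ mean, Acta2 minus Actg2 was 0.58, 0.57, 2.00, 0.52 and 0.96 in Ing2-/- testes, and it stayed between -0.06 and 0.06 in Ing2+/+ testes. The mean of these Ing2-/- values was 0.93 (SD 0.63, n = 5), and the spread of the Ing2+/+ values was an SD of 0.06 (n = 3). Among the other actins, the differences were 0.15 for Actb, the cytoplasmic beta-actin (SE 0.0691, limma adjusted p = 0.198), 0.00 for Acta1, the skeletal alpha-actin (adjusted p = 0.983), and 0.02 for Actc1, the cardiac alpha-actin (adjusted p = 0.884). The groups overlapped for all 3 of them. Actg1, another actin gene, had no probe set of its own and was not read. Acta1 and Actc1 had Ing2+/+ means of 6.78 and 6.36, beside 6.51 and 6.81 for the skeletal muscle markers Ckm and Tnni2. Whether Acta1 and Actc1 were detected was not tested.

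Both myosin chains lay above the Ing2+/+ range in Ing2-/- testes, though not with an equal Sertoli marker median, and their kinase overlapped it. Myh11, the smooth muscle myosin heavy chain, had 8.24, 8.11, 8.88, 8.21 and 8.35 in Ing2-/- testes, against 7.90, 7.98 and 7.98 in Ing2+/+ testes. Myl9, a regulatory light chain of smooth muscle myosin, had 9.0, 9.05, 9.79, 8.91 and 9.19 in Ing2-/- testes, against 8.59, 8.72 and 8.81 in Ing2+/+ testes. The groups did not overlap for either gene, and replicate 3 was again the highest Ing2-/- testis. The changes were 0.41 for Myh11 (SE 0.160, limma adjusted p = 0.144) and 0.49 for Myl9 (SE 0.183, adjusted p = 0.131). The value of Myl9 was the largest positive one of the set. Mylk, the myosin light chain kinase that phosphorylates this light chain, had 7.91, 7.97, 7.94, 7.74 and 7.98 in Ing2-/- testes and 7.92, 7.97 and 8.01 in Ing2+/+ testes. Its groups overlapped, and its lowest value was that of Ing2-/- replicate 4. The difference was -0.06 (SE 0.073, adjusted p = 0.645).

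The actin-associated proteins were divided. Tagln, or SM22, binds actin filaments, and had 7.43, 7.38, 7.82, 7.43 and 7.52 in Ing2-/- testes, against 7.12, 7.32 and 7.33 in Ing2+/+ testes. Smtn, or smoothelin, is found on the actin filaments of contractile smooth muscle, and had 7.30, 7.23, 7.68, 7.39 and 7.34 in Ing2-/- testes, against 7.05, 7.20 and 7.01 in Ing2+/+ testes. In both genes the lowest Ing2-/- testis was just above the highest Ing2+/+ testis. The change was 0.26 for Tagln (SE 0.109, limma adjusted p = 0.168) and 0.30 for Smtn (SE 0.105, adjusted p = 0.110). Cnn1, or calponin, which restrains the myosin ATPase on actin, had 6.56, 6.62, 6.95, 6.54 and 6.66 in Ing2-/- testes and 6.59, 6.76 and 6.62 in Ing2+/+ testes. Apart from replicate 3, the Ing2-/- values of Cnn1 lay within or below those of the Ing2+/+ testes. Its difference was 0.01 (SE 0.102, adjusted p = 0.957) and had no stable sign, being -0.06 without Ing2-/- replicate 3 and -0.06 after cyclic loess normalisation.

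The groups overlapped for the last pair of members. Lmod1, or leiomodin, nucleates actin filaments in smooth muscle, and had 5.92, 6.45, 6.30, 6.12 and 6.23 in Ing2-/- testes, against 6.16, 5.99 and 5.89 in Ing2+/+ testes. Des, the muscle intermediate filament protein desmin, had 6.07, 6.05, 6.27, 6.18 and 6.28 in Ing2-/- testes, against 6.10, 5.98 and 5.99 in Ing2+/+ testes. For both genes the Ing2-/- mean was the higher one, and some Ing2-/- testes lay below the highest Ing2+/+ testis. The differences were 0.19 for Lmod1 (SE 0.119, limma adjusted p = 0.344) and 0.14 for Des (SE 0.0774, adjusted p = 0.267).

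**Figure D2:**
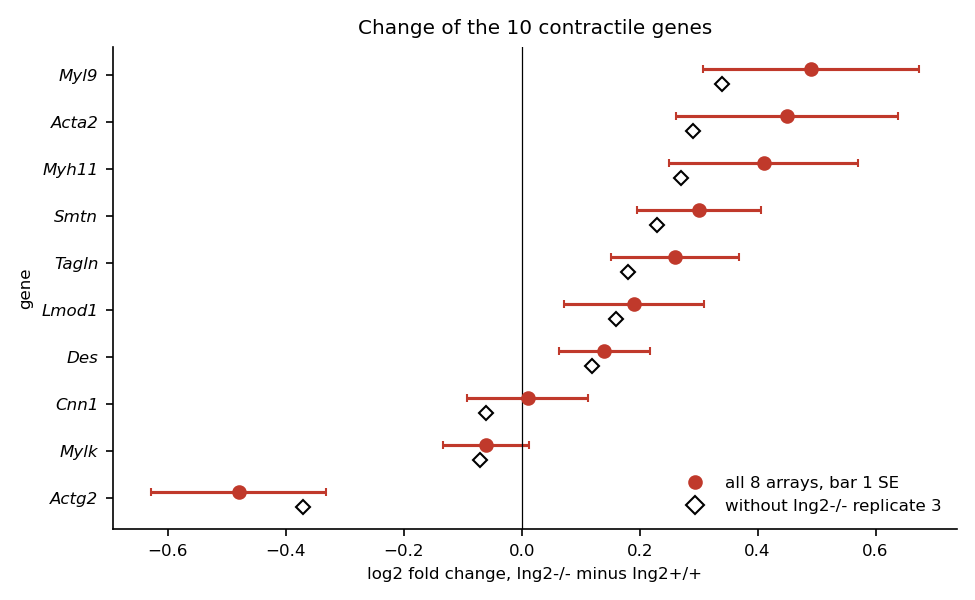
Log2 fold change, Ing2-/- minus Ing2+/+, of the 10 contractile genes with 1 SE from the limma fit of all 8 arrays (filled circles) and without Ing2-/- replicate 3 (open diamonds). Actg2 lies alone on the far negative side at -0.48, Mylk and Cnn1 lie near 0 with Cnn1 changing sign without replicate 3, and the others run up to 0.49 for Myl9 on this scale, all of them turning below 0 with an equal Sertoli marker median.

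Ing2-/- replicate 3 lay at the end of the Ing2-/- range in most members. It was the highest or the lowest Ing2-/- testis in 7 of the 10 members, a share near the 61.4% of all probe sets. It was the highest in 6 of the 10 members and in 32.6% of all probe sets. Relative to the Ing2+/+ mean it had 1.09 for Myl9, 1.07 for Acta2, 0.93 for Myh11, 0.59 for Smtn and 0.56 for Tagln, with -0.93 for Actg2. Each of these was larger in size than in any other Ing2-/- testis. The closest array was Ing2-/- replicate 5 for Myl9, Acta2, Myh11, Tagln and Actg2, with 0.49, 0.42, 0.39, 0.26 and -0.54. The SD of the Ing2-/- arrays exceeded that of the Ing2+/+ arrays in 10 of the 10 members, and in 71.5% of all probe sets. Without replicate 3 this held for 7 of the 10 members and for 62.3% of all probe sets.

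Leaving out replicate 3 made 8 of the 10 differences smaller in size, Cnn1 and Mylk being the exceptions, and the calls more numerous. Without it, limma called 3 members higher, namely Acta2 with 0.29 (adjusted p = 0.0471), Myh11 with 0.27 (adjusted p = 0.0359) and Myl9 with 0.34 (adjusted p = 0.0348). It called 1 member lower, Actg2 with -0.37 (adjusted p = 0.0264). The calls over the whole array grew as well, to 7.31% of all probe sets higher and 6.77% lower. Smtn with 0.23 (adjusted p = 0.0620) and Tagln with 0.18 (adjusted p = 0.139) were not called. When any other single array was left out, no member was called. Calls over all probe sets numbered between 49, without Ing2+/+ replicate 2, and 5006, without Ing2-/- replicate 3, so that the count of calls in any gene list varies with the array left out.

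Relative to Ing2+/+, Actg2 was the lowest member in every Ing2-/- testis, though Mylk was close to it in replicate 4. Set against the mean of the other 9 members, and relative to Ing2+/+, Actg2 stood at -0.35, -0.58, -1.49, -0.40 and -0.79 in the Ing2-/- testes, whereas the Ing2+/+ testes were all within 0.01 of 0. The mean of the Ing2-/- values was -0.72 (SD 0.46, n = 5). Mylk and Cnn1 also had every Ing2-/- array below every Ing2+/+ array on this measure, with means of -0.25 (SD 0.16) and -0.18 (SD 0.04). In Ing2-/- replicate 4 Mylk was at -0.35, beside -0.40 for Actg2. This measure subtracts the mean of the other members, which was mostly above 0, so a gene with little change falls below 0. On their own levels the groups of Mylk and Cnn1 overlapped. No share of all probe sets was taken on this measure. On the other side, Myl9 and Myh11 had every Ing2-/- array above every Ing2+/+ array on this measure, with means of 0.35 (SD 0.24) and 0.26 (SD 0.19). Acta2 with 0.31 (SD 0.25), Smtn with 0.15 (SD 0.08) and Tagln with 0.10 (SD 0.05) were also above 0 in all 5 Ing2-/- arrays but overlapped the Ing2+/+ arrays. Averaged over all 10 members, the deviation from the Ing2+/+ mean was 0.09, 0.09, 0.41, 0.08 and 0.18 in the Ing2-/- testes. Without Actg2 it was 0.13, 0.15, 0.56, 0.12 and 0.26.

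Markers of germ cells and of Sertoli cells also deviated in these arrays. The mean deviation of 17 round spermatid markers was -0.26, -0.28, -0.88, -0.15 and -0.33 in Ing2-/- testes with the Ing2+/+ testes at -0.02 to 0.02. Their median change was -0.39, or -0.24 without replicate 3, with 1 of 17 called lower, or 7 without replicate 3, and 13 of 17 with every Ing2-/- array below. For 18 elongating spermatid markers the Ing2-/- testes had -0.11, -0.12, -0.61, -0.17 and -0.32, and the Ing2+/+ testes -0.05 to 0.05. Replicate 3 was thus the lowest array for Actg2 and for both spermatid lists. The median change of the elongating spermatid markers was -0.21, with 0 called, or 3 called lower without replicate 3. The 25 Sertoli cell markers had 0.38, 0.29, 1.11, 0.32 and 0.53 in Ing2-/- testes and -0.02 to 0.02 in Ing2+/+ testes, with a median change of 0.55, or 0.40 without replicate 3, and 1 of 25 called higher, or 16 without replicate 3, and 21 of 25 with every Ing2-/- array above. Replicate 3 was likewise the highest array for this list and for Acta2, Myl9, Myh11, Smtn and Tagln. The part of the spermatid and Sertoli differences in the member results was not tested.

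**Figure D3:**
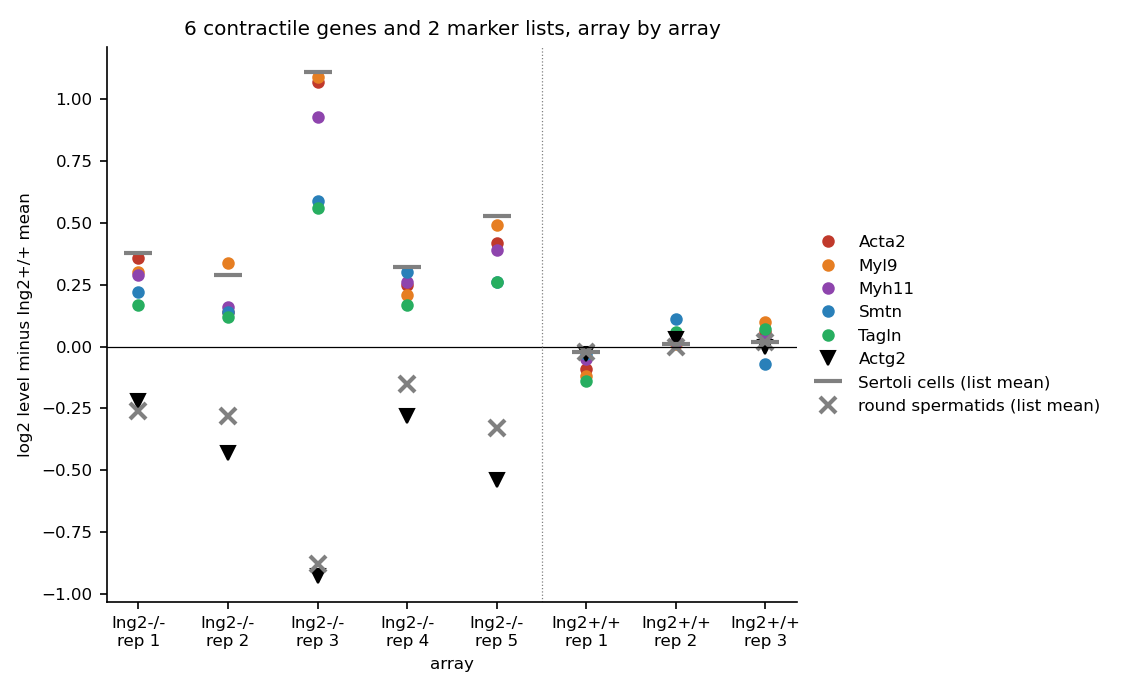
Log2 level minus the Ing2+/+ mean on each of 5 Ing2-/- arrays (left of the dotted line) and 3 Ing2+/+ arrays (right) for 6 contractile genes (coloured circles and black triangles), with the list means of 25 Sertoli cell markers (grey dashes) and 17 round spermatid markers (crosses). On Ing2-/- replicate 3, on the deposited scale, Acta2 at 1.07 and Myl9 at 1.09 sit beside the Sertoli markers at 1.11, and Actg2 at -0.93 sits beside the spermatid markers at -0.88.

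The members were also read relative to the Sertoli cell markers. Setting the arrays to an equal Sertoli marker median subtracts 1 amount from every gene of an array, so that all differences drop together and their signs follow from that shift. The median change of all probe sets became -0.61 and that of the members -0.42, with members from -1.12 for Actg2 to -0.15 for Myl9. On that scale limma called 4 of the 10 members lower (Actg2, Cnn1, Des and Mylk), a smaller share than the 74.2% of all probe sets. Of the 10 members, 7 lay above the median of all probe sets on the deposited scale, and the shift cannot change this count. Of Pde5a, Oxtr, Smad3, Myl6, Sparc, Ccn2, Rgs5, Abcc9, Kdr, Mrc1 and Cd68, all from other lists, Sparc alone kept a difference above 0, at 0.18. Outside these, the Leydig markers Hsd17b3, Cyp11a1 and Hsd3b1 stayed above 0 in every alternative, with lowest values of 0.30, 0.19 and 0.16. The Sertoli marker Defb36 did so too, with a lowest value of 0.05. None of these Leydig and Sertoli markers was called with an equal Sertoli marker median.

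Other genes of the smooth muscle apparatus gave medians close to that of the members. Of 18 measured genes of thin filaments and adhesion sites, 0 were called higher (3 without Ing2-/- replicate 3) and 1 lower, 8 had every Ing2-/- array above, and the median change was 0.23, or 0.11 without replicate 3. The gene called lower was Palld, which encodes palladin, an organiser of actin bundles, with -0.73 (SE 0.0744, limma adjusted p = 0.00508). Palld stayed called whichever single array was left out, with adjusted p between 0.00258 and 0.0396. Like Actg2, Palld was lower in all Ing2-/- arrays while most of its list was not. Palld lies on chromosome 8, as Ing2 does. The paper's targeted allele came from ES cells of another strain than the mice it was bred to. The part of this linkage in the Palld difference was not tested. Of 18 measured genes that control contraction, 0 were called in either direction and the median was 0.20, while without replicate 3 there were 2 called higher and the median was 0.13. The pair with the smallest p were Pde5a, the phosphodiesterase that breaks down cyclic GMP, with 0.51 (SE 0.134, adjusted p = 0.0614), and Oxtr, the oxytocin receptor, with 0.31 (SE 0.0884, adjusted p = 0.0757). Without Ing2-/- replicate 3, Pde5a was called with 0.41 (adjusted p = 0.0146).

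Regulators and relatives of the contractile genes had 1 call each with all arrays and more without Ing2-/- replicate 3. Of 16 genes of the SRF, myocardin and TGF-beta group that regulates smooth muscle genes, 1 was called higher, 7 had every Ing2-/- array above and the median was 0.18. Without Ing2-/- replicate 3, 5 of them were called higher and 1 lower. The called gene was Smad3, a signal transducer of TGF-beta, with 0.55 (SE 0.121, limma adjusted p = 0.0415). Of 19 measured non-muscle and striated relatives of the members, 1 was called higher, or 6 without Ing2-/- replicate 3. Their median was 0.09, with 0.12 without Ing2-/- replicate 3 and 0.03 without Ing2+/+ replicate 3. Of the 19, 6 had every Ing2-/- array above, beside 14.4% of all probe sets. They were Myl6, Myh9 with 0.42, Myl12a with 0.67, Myl12b with 0.41, Cnn3 with 0.94 and Vim with 0.82. Vim was also on the Sertoli cell list. Another 2, Tagln3 and Smtnl1, had every one below, beside 12.2% of all probe sets. The called gene was Myl6, the essential light chain of smooth muscle and non-muscle myosin, with 0.52 (SE 0.112, adjusted p = 0.0406). Myl9, the other light chain of this myosin, had 0.49. The calls of Smad3 and Myl6 were both lost on leaving out Ing2-/- replicate 1, 2 or 5 or any Ing2+/+ array, with adjusted p up to 0.145 for Smad3 and 0.156 for Myl6.

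Genes listed as non-contractile genes of peritubular cells had a larger median than the contractile set. Of 14 measured genes of this kind, 2 were called higher (6 without Ing2-/- replicate 3), 10 had every Ing2-/- array above, 0 had every one below, and the median change was 0.39, or 0.35 without replicate 3, beside 0.22 and 0.17 for the contractile members. The called genes were Sparc, a secreted matrix glycoprotein, with 0.82 (SE 0.146, limma adjusted p = 0.0242), and Ccn2, or connective tissue growth factor, with 0.57 (SE 0.120, adjusted p = 0.0381). Sparc was no longer called without Ing2-/- replicate 5 or any Ing2+/+ array (adjusted p up to 0.112), and Ccn2 without Ing2-/- replicate 1, 2 or 5 or any Ing2+/+ array (up to 0.150). The difference between the contractile and non-contractile lists was not tested. In whole testis RNA these values cannot be assigned to peritubular cells alone. The Sertoli and Leydig lists had medians of 0.55 and 0.60.

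Other cell types that express contractile or neighbouring genes were read in the same way. Of 11 vascular smooth muscle and pericyte markers, 2 were called higher and 0 lower (2 and 1 without Ing2-/- replicate 3). The median of these markers was 0.19, and it was 0.19 without Ing2-/- replicate 3 and 0.12 without Ing2+/+ replicate 3. Their list mean was between 0.06 and 0.21 in Ing2-/- testes, against -0.04 to 0.02 in Ing2+/+ testes, and Ing2-/- replicate 3, with 0.18, lay inside the range of the other Ing2-/- arrays here. The called genes were Rgs5, a pericyte regulator of G protein signalling, with 0.44 (SE 0.067, limma adjusted p = 0.0162), and Abcc9, a subunit of ATP-sensitive potassium channels, with 0.40 (SE 0.0859, adjusted p = 0.0411). Rgs5 lost its call when any single Ing2+/+ array was left out (adjusted p up to 0.0887), and Abcc9 without Ing2-/- replicate 1, 2 or 5 or any Ing2+/+ array (up to 0.158). The 10 endothelial markers had a median of 0.21, with 1 called higher, the vascular growth factor receptor Kdr with 0.49 (adjusted p = 0.0367, and up to 0.130 without Ing2-/- replicate 1 or 2 or any Ing2+/+ array).

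The remaining marker lists were read last. Leydig cell markers had the largest median, 0.60 over 11 measured genes with 5 called higher. Lhcgr, Insl3 and Prlr of this list had no probe set of their own. Hsd17b3 and Cyp11a1 lost their calls without Ing2-/- replicate 1, 2 or 5 or any Ing2+/+ array (limma adjusted p up to 0.157 and 0.153). Hsd3b1 lost its call without Ing2-/- replicate 1 or 5 or any Ing2+/+ array (up to 0.148). Macrophage markers had a median of 0.36 over 14 genes with 0 called. The smallest p of the macrophage list were those of the receptor Mrc1 with 0.40 (limma adjusted p = 0.0612) and of Cd68 with 0.38 (adjusted p = 0.0726). Without Ing2-/- replicate 3, 4 macrophage markers were called higher, among them Mrc1 with 0.35 (adjusted p = 0.0419) and Cd68 with 0.31 (adjusted p = 0.0283), and without Ing2-/- replicate 2 Mrc1 was called with 0.47 (adjusted p = 0.0356). Spermatogonia had 0.10 over 16 genes and pachytene spermatocytes -0.20 over 14 genes, with 1 gene called lower in each. Without Ing2-/- replicate 3, spermatogonia had 3 called higher and 1 lower, and pachytene spermatocytes had 3 called lower. Skeletal muscle markers had a median of -0.01 over 15 genes with 0 called, and 6 of the 15 were under the background median on every array. Their list mean ran from -0.07 to 0.04 over the Ing2-/- arrays and from -0.05 to 0.05 over the Ing2+/+ arrays. Markers of epididymis and ducts had a median of 0.01 over 18 measured genes, with 8 of the 18 under the background median on every array, 0 called higher and 1 called lower. Their list mean ran from -0.14 to 0.30 over the Ing2-/- arrays and from -0.03 to 0.02 over the Ing2+/+ arrays, with the highest value in Ing2-/- replicate 4. On that array Adam7 was at 6.80 and Ces5a at 8.26, against at most 4.32 and 7.12 in Ing2+/+ testes. Rnase10 and Defb41, both under the background median on every array, had their lowest value there. The source of these values was not tested.

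**Figure D4:**
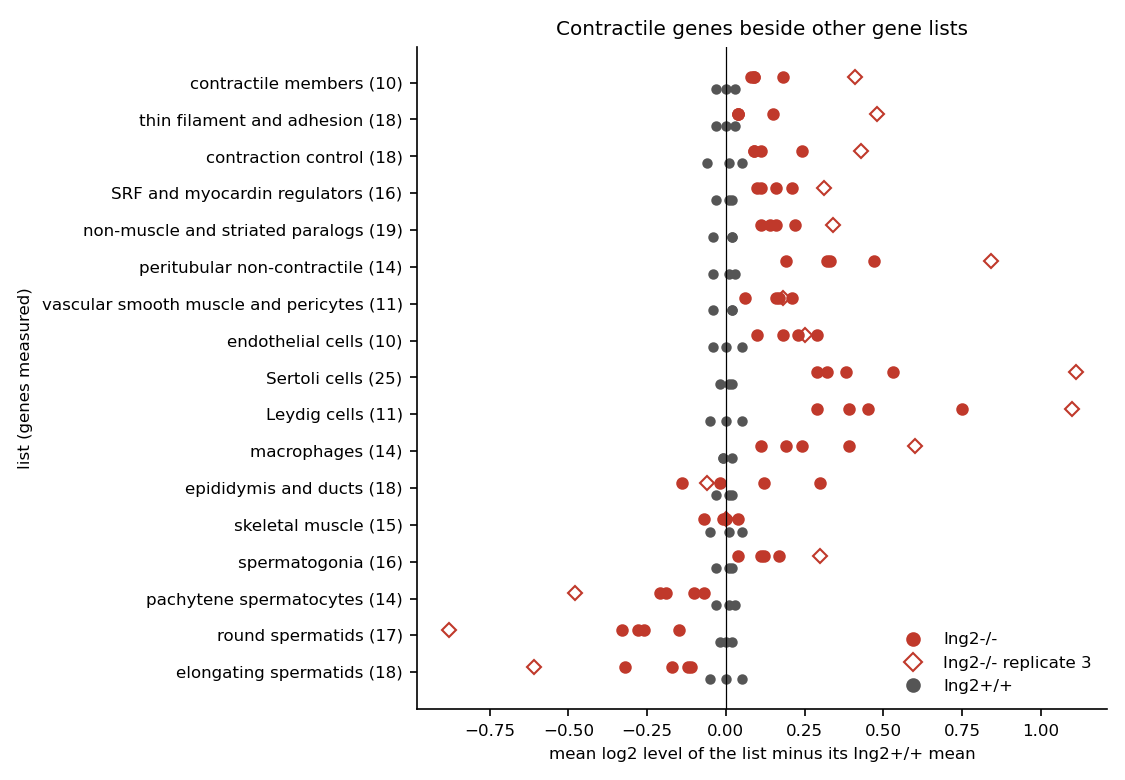
Mean log2 level minus the Ing2+/+ mean (horizontal axis) of the 10 contractile members and of 16 other gene lists on each array, with Ing2-/- arrays in red above the Ing2+/+ arrays in grey and the open diamond for Ing2-/- replicate 3; the number of genes measured is in brackets. The contractile members lie between 0.08 and 0.41 in Ing2-/- testes, below the Sertoli and Leydig lists and above the spermatid lists.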

How the data were processed

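Whole testis RNA was hybridised to Affymetrix Mouse Gene 1.0 ST arrays. The deposited log2 values had been made by the authors with RMA at gene level in Affymetrix Expression Console (version not stated). These values were used without further normalisation. Probe sets were named from the platform annotation: 21789 had exactly 1 symbol, 1621 had several and 12147 had none. For 21698 of those with exactly 1 symbol, the current symbol was looked up through the gene ID, whether or not it had changed. Ing2-/- and Ing2+/+ arrays were tested by moderated linear models (limma 3.58.1, lmFit then eBayes, prior df 2.85, R 4.3.3). The p-values were adjusted by Benjamini-Hochberg across all 35557 probe sets, and those under 0.05 were called. This stands in for the random variance model of the study's methods, which was run as an alternative. The number of arrays limits the precision.

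Named genes were all members, Ing2, and, of each other list, at most 3 called genes, taken by size of change, or if none was called the 2 of lowest p, with paralogs where a member was read beside them. Some genes of the epididymis list with a high or low level in Ing2-/- replicate 4 were also named. The brightest probe set stood for a gene of another list. The lists were not fully separate. Vim was on the lists of relatives and of Sertoli markers, Nr5a1 on those of Sertoli and Leydig markers, and Dmrt1 on those of Sertoli and spermatogonia markers. The members and lists were chosen with earlier results of these data known. Replicate numbers were checked for pairing: same-numbered arrays of the 2 groups correlated at -0.06, 0.18 and 0.01 in their deviations from the group means, so that the numbers were not treated as pairs. Alternatives were other normalisations, filters and variance models, array weights, a replicate block and leaving out each array. No scan batch was given in the labels.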

Additional observations from a re-analysis of the deposited data

Results flagged for a closer look

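The Mylk level of Ing2-/- replicate 4, at 7.74, lay apart from the other Ing2-/- testes, which were between 7.91 and 7.98. The gap was 0.719 of the range of the 5 arrays, just past the critical value of 0.71 for 5 arrays. Ing2 and the 10 members gave 11 such groups, and chance alone marks about 1 in 20. Ing2-/- replicate 3 was the array set apart in Cnn1 (0.708), Acta2 (0.699), Myh11 (0.692), Tagln (0.685), Myl9 (0.68), Smtn (0.653) and Actg2 (0.557). All of these were under the critical value, so Mylk is not the only member with an array set apart.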

How the results depend on the processing

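Over the 8 fits that each left out 1 array, 0 to 3 members were called higher and 0 to 1 lower, and the median of the members ran from 0.17 to 0.27. With array weights, which gave Ing2-/- replicate 3 a weight of 0.212, limma called 3 members higher and 1 lower. After cyclic loess, 3 members (Acta2, Myh11 and Myl9) had every Ing2-/- array above, and of 1982 probe sets called in all 480 were higher and 1502 lower, beside 635 and 1078 on the deposited scale. With an equal Sertoli marker median, 0 members had every Ing2-/- array above, 8 had every one below, 4 were called lower, the median was -0.42, and 16 probe sets were called higher and 26395 lower over the array. The share of all probe sets with every Ing2-/- array below was not counted on this scale. Since 74.2% of all probe sets were called lower on it, the 8 members are not read as a result about the set. This rescaling turned Acta2 (-0.19), Myh11 (-0.24), Tagln (-0.38), Des (-0.50), Lmod1 (-0.45), Myl9 (-0.15), Smtn (-0.34) and Cnn1 (-0.63) below 0. It did the same for Pde5a (-0.13), Oxtr (-0.34), Smad3 (-0.09), Myl6 (-0.12), Ccn2 (-0.07), Rgs5 (-0.20), Abcc9 (-0.24), Kdr (-0.15), Mrc1 (-0.24) and Cd68 (-0.26). Cnn1 also changed sign with cyclic loess (-0.06) and array weights (-0.06), and ran from -0.06 to 0.06 with 1 array left out. The replicate block called 0 members and 0 probe sets in all, with a median of 0.24 for the members and an adjusted p of 0.0612 for Ing2. The count of all calls was 184 with unshared variances, 6565 with array weights (3633 higher) and 49 to 5006 with 1 array left out. The random variance model, the intensity trend, and the filter to single-symbol probe sets called 0 members. The filter on level tested 8 of the 10 members, without Des and Lmod1, and called 0. Averaging probe sets of a gene was not run, since each member had 1. The cause of these changes was not tested.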
